A study of Mus musculus with 60 samples.

Results

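Rn7sk, Rmrp, Rpph1 and Rnu6 are 4 mouse genes for small noncoding RNAs that are made by RNA polymerase III, and their entries were chosen by symbol, 4 of the 47597 entries in each of 60 RNA-Seq tables. The libraries were made from the brains of 3-month-old c57BL-6N mice of 2 lines whose Htt gene, which codes for huntingtin, had been edited. In the Δ12 line (+/+, Δ12/+ and Δ12/Δ12 littermates), the allele lacks a stretch of exon 12 and has a new splice donor, to mimic a splice isoform. In the KO line (+/+ and KO/+ littermates), an imprecise deletion, found in 1 founder line, removed the splice donor of that exon. In each line the labels name cortex and striatum, with 3 males and 3 females per genotype, which makes 10 groups of 6 libraries from 30 mice. Total RNA was depleted of ribosomal RNA, without a selection for poly(A), so that RNAs without a tail could be read.

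The RNAs of this group share short genes, promoters that lie mostly upstream of the start and a run of T that ends the transcript, but they work in different machines. The product of Rn7sk, 7SK RNA, holds the kinase P-TEFb, which releases paused RNA polymerase II, in an inactive complex with the proteins Hexim1, Larp7 and Mepce. Rmrp and Rpph1 code for the RNA parts of RNase MRP and RNase P, related ribozymes that share most of their proteins and cut precursors of ribosomal RNA and of transfer RNA. U6 RNA, here the Rnu6 entry, is at the catalytic center of the spliceosome. None of these RNAs is known for marking 1 cell type of the brain.

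All 4 entries carried the status OK in every library and lie on the minus strand of GRCm38 as genes with 1 transcript. Rn7sk (ENSMUSG00000065037, a misc_RNA of 331 bases) is on chromosome 9 from 78175303 to 78175633, and Rmrp (ENSMUSG00000088088, a ribozyme of 271 bases) is on chromosome 4 from 43492788 to 43493058. Rpph1 (ENSMUSG00000092837, a ribozyme of 319 bases) is on chromosome 14 from 50807449 to 50807767. Rnu6 (ENSMUSG00000095132) is annotated as an snRNA. Each is an exon of a noncoding gene, with no intron and no UTR. The 5′ end of Rn7sk is shown for the GATC motifs that Hexim1 is known to bind, of which the first 300 bases hold 3, at bases 13 to 16, 42 to 45 and 64 to 67, given in capitals.
Rn7sk, bases 1 to 300, chr9:78175334-78175633: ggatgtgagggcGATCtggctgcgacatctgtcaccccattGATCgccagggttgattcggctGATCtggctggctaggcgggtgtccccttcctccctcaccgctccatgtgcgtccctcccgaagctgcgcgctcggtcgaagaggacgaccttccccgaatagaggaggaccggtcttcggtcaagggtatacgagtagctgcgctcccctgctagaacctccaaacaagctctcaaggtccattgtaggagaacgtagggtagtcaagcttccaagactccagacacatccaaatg

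Rmrp and Rpph1 are shown together because they are related ribozyme RNAs whose FPKM moved together in these libraries. Their letters have diverged, with 51.8% identical columns in a global alignment. The longest runs that they share are 2 runs of 9 letters, given in capitals, at bases 183 to 191 and 221 to 229 of Rmrp and at bases 17 to 25 and 246 to 254 of Rpph1. Rpph1 also holds a run of 23 letters, gcggatgcctccctcgccggagc, that occurs again within its own sequence.
Rmrp, whole, chr4:43492788-43493058: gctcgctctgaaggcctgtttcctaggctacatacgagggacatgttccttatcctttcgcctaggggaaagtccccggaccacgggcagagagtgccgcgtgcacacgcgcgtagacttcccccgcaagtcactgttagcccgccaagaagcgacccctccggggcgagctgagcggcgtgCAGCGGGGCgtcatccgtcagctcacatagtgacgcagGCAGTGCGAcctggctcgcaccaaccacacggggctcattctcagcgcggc
Rpph1, bases 1 to 300, chr14:50807468-50807767: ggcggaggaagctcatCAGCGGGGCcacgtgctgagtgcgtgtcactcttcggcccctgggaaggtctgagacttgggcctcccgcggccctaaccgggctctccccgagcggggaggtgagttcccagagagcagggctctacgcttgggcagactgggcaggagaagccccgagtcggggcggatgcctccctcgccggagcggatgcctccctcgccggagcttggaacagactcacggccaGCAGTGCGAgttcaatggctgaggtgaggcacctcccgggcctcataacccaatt

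Rnu6 has many copies, which bears on its values. Its whole sequence occurs in 42 other transcripts of the GENCODE M21 annotation, whereas the whole sequence of Rn7sk or Rpph1 occurs in none and that of Rmrp only in a second Rmrp gene model, which overlaps it and is not listed in the tables. GC content was 58.0% in Rn7sk, 64.2% in Rmrp, 67.1% in Rpph1 and 45.8% in Rnu6.

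The sequence upstream of 3 of the genes is shown because their FPKM were high in the same libraries, and genes of this type are known to be driven by a TATA element and a distal octamer, ATGCAAAT, bound by Oct-1. The windows were read on the strand of each gene from RefSeq promoters (GRCm38.p6) of the divergent neighbors C920006O11Rik, Ccdc107 and Parp2. They begin 31 bases before the start of Rn7sk, 57 before that of Rmrp and 1 before that of Rpph1, so the TATA position is in the Rpph1 window alone. The octamer, searched on both strands, lay 223 to 216 bases before the start of Rmrp, as ATTTGCAT, and 100 to 93 bases before that of Rpph1. In the Rn7sk window its first 7 letters, ATGCAAA, were read on the other strand as TTTGCAT 223 to 217 bases before the start, a shorter motif chosen after the window was seen. Of 32851 RefSeq promoters, 1.74% held the octamer and 4.63% its first 7 letters. Those promoters were read on both sides of their own start, whereas the windows here lie wholly before the start. The Rpph1 window is also shorter, so these shares are a rough background. TATAA was found on the opposite strand of the Rpph1 window, as TTATA 33 to 29 bases before the start, and 3.61% of promoters held it on either strand from 35 to 20 bases before the start. The octamers and the 7 letters are in capitals.
Rn7sk upstream, chr9:78175664-78175963: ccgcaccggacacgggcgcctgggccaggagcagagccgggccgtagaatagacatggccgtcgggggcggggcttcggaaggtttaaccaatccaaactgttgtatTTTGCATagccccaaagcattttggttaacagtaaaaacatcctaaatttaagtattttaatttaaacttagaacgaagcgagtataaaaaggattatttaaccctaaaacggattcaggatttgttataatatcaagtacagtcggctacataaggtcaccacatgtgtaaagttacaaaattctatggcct
Rmrp upstream, chr4:43493115-43493414: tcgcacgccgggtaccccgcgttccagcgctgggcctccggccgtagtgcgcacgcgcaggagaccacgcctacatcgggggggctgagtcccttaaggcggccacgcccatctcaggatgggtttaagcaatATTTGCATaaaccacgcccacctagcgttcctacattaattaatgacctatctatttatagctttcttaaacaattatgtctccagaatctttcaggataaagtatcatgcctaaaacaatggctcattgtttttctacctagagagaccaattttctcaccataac
Rpph1 upstream, chr14:50807768-50807965: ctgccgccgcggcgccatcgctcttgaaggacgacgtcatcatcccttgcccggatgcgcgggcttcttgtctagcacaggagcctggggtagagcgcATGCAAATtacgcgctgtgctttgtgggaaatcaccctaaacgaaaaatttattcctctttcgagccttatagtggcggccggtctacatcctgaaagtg

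The labels of tissue and sex went against the data in part of the series, and this touches each comparison below. Slc17a7, which codes for the vesicular glutamate transporter of cortical excitatory neurons, took separate ranges, 121 to 234 FPKM (fragments per kilobase of transcript, scaled to the depth of the library) in 30 libraries and 4.81 to 64.8 FPKM in the other 30. The first 30 are called cortex-like here and the others striatum-like, and 30 of the 60 libraries went against their labelled tissue. The cortex-like libraries were all those labelled +/+ and Δ12/+ of the Δ12 line and the labelled males of Δ12/Δ12, from both labelled tissues. The striatum-like libraries were the labelled females of Δ12/Δ12 and all of the KO line. The summed level of 8 markers of striatal projection neurons was 89.7 to 532 rescaled FPKM in the cortex-like and 1023 to 1996 in the striatum-like libraries, and that of 5 choroid plexus markers was 1.88 to 379 and 34.5 to 2098. That of 6 oligodendrocyte markers was 510 to 1138 and 1476 to 2487, and that of 5 blood markers 693 to 2355 and 119 to 206. In 30 libraries, Ddx3y and Xist went against the labelled sex. In the Δ12 line, Htt had medians between 9.55 and 14.1 FPKM over the 6 groups, and in the KO line it was at 15.4 to 18.1 FPKM in +/+ and 11.6 to 17.3 in KO/+. These ranges of the KO line overlapped, so Htt does not settle the genotype of each library, and the genotypes below are those of the labels. Each library held an estimated 12784200 to 27543900 fragments. Comparisons of Δ12/+ and of KO/+ with +/+ therefore lay within 1 set of libraries, and the comparison of Δ12/Δ12 mixed the sets by labelled sex. That of the lines crossed them, so line, tissue and place in the list cannot be told apart. The sets were defined from the data, so levels set side by side between them are given with no test. The tests between the lines, and those that set the labelled sexes of Δ12/Δ12 apart, follow the labels but compare the same libraries as the sets.

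Rn7sk, Rmrp and Rpph1 had much higher FPKM in the cortex-like libraries, and the ranges did not overlap. Rn7sk was at 98137, 140193 and 257574 FPKM as deposited (lowest, median and highest of 30) in the cortex-like and at 9819, 14164 and 25523 in the striatum-like libraries. Rmrp was at 105248, 148582 and 270825 FPKM against 6648, 11990 and 17825. Rpph1, the RNA of RNase P, was at 294127, 450316 and 792398 FPKM against 8789, 15181 and 20706. The medians thus differed 9.90-fold for Rn7sk, 12.4-fold for Rmrp and 29.7-fold for Rpph1. The fragments behind these values, given below, differed about as much for Rn7sk and Rpph1 but only 1.58-fold for Rmrp. In bulk tissue, fewer cells of a type and less of an RNA per cell cannot be told apart, nor can tissue and place in the list.

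The levels of a set were alike whichever tissue the labels named. Among the cortex-like libraries, the median of Rn7sk was 138256 FPKM in the 15 labelled cortex and 145083 in the 15 labelled striatum, and among the striatum-like libraries it was 14321 and 14007. Rmrp had medians of 139438 and 150132 FPKM in the cortex-like libraries and 12075 and 11904 in the others. Rpph1 had medians of 415522 and 471716 FPKM, and of 16090 and 14997. In each of these pairs the ranges of the libraries labelled cortex and striatum overlapped.

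**Figure D1:**
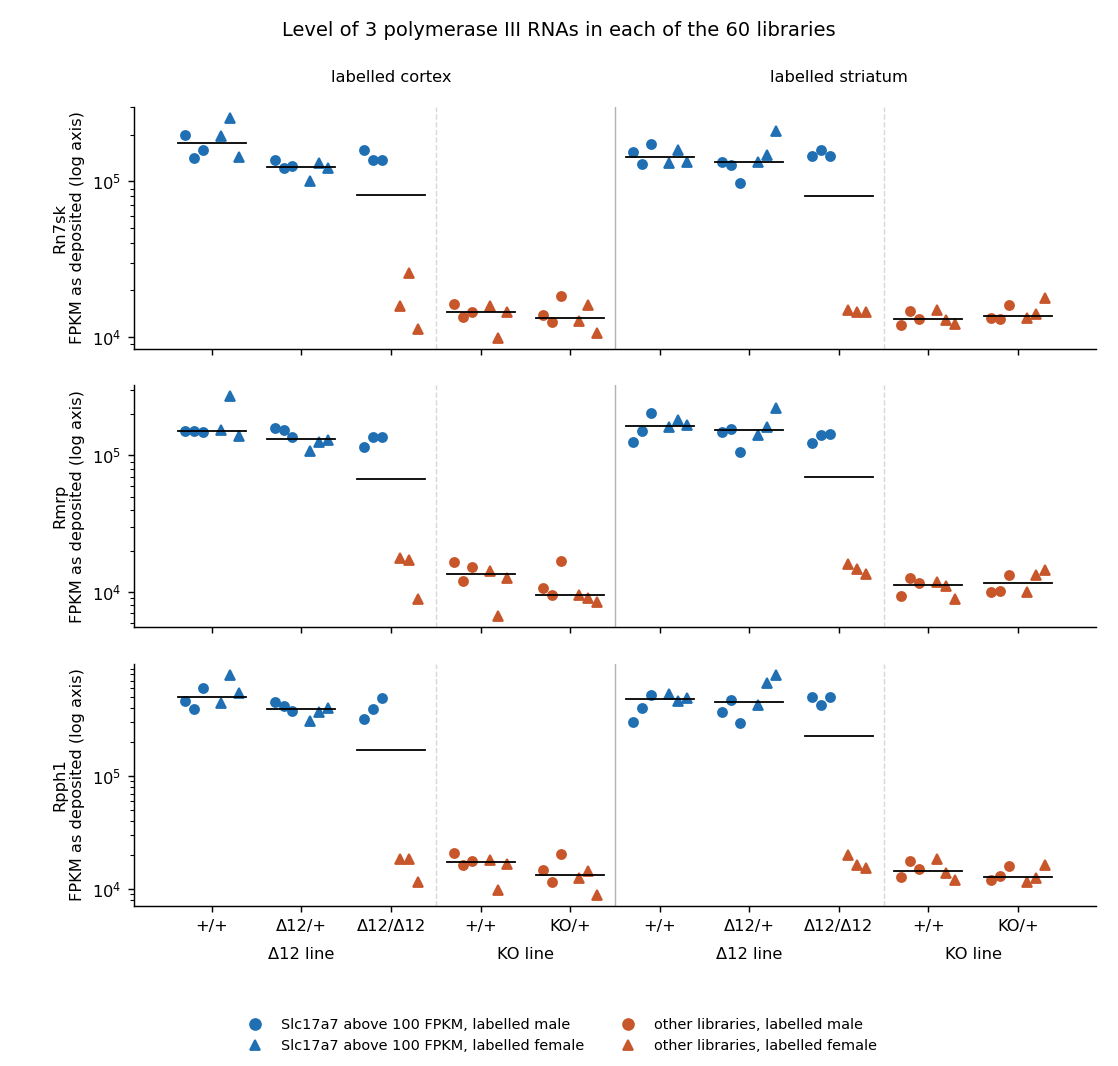
FPKM as deposited (y axis, log scale) of Rn7sk, Rmrp and Rpph1 in each of the 60 libraries, by labelled tissue, line and genotype (x axis), with circles for labelled males, triangles for labelled females, colors for the sets defined by Slc17a7 and black lines for the group medians. Points of the cortex-like set sit at 98137 or more for all 3 RNAs and those of the striatum-like set at 25523 or less, and the Δ12/Δ12 groups are split between them, so that their medians lie where there is no library.

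Within a set, the spread of each RNA was small beside the difference between the sets. The coefficient of variation of the FPKM as deposited was 22.0% for Rn7sk, 22.1% for Rmrp and 26.5% for Rpph1 in the cortex-like libraries and 20.0%, 24.4% and 21.2% in the striatum-like libraries. The highest library stood 2.36-fold to 2.69-fold above the lowest for the 3 RNAs and 2 sets. In the striatum-like libraries, the spread of Rn7sk was 13.1% without its highest and lowest library, since the library labelled cortex, Δ12/Δ12, female 2 was at 25523 FPKM and the next highest at 18259.

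The difference between the sets also stood after rescaling for the 3 RNAs, and in the fragments for Rn7sk and Rpph1. After each library was divided by the median ratio of its entries to their geometric mean (rescaled FPKM), the medians differed 7.88-fold for Rn7sk, 9.25-fold for Rmrp and 22.8-fold for Rpph1. The interval bounds beside each FPKM gave an estimate of the fragments behind it, a median of 1.45% of the library in the cortex-like and 0.145% in the striatum-like libraries for Rn7sk. For Rpph1 it was 3.96% and 0.142%. Together these 2 RNAs held 5.60% of the fragments (3.45% to 9.25%) in the cortex-like and 0.294% (0.185% to 0.423%) in the striatum-like libraries. The bounds of Rmrp implied 2282 to 2319 fragments in the first set and 1678 to 2096 in the second whatever its FPKM. Relative to depth, the medians of Rmrp differed 1.58-fold between the sets, and the lowest cortex-like library stood 1.008-fold above the highest striatum-like one. Whether the FPKM or the bounds of Rmrp reflect its fragments cannot be told apart from these tables, so each difference of Rmrp rests on its FPKM alone. These figures cover counting error only, and the libraries carry no molecular identifiers that are stated.

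FPKM of such short genes depend on the length by which fragments are divided. The length implied by the FPKM and the fragments was 90.3 to 116 bases for Rn7sk and 78.2 to 103 bases for Rpph1 over all 60 libraries, well under their 331 and 319 bases. For Rn7sk, its medians were 99.3 and 102 bases in the 2 sets, and for Rpph1 86.5 and 90.3 bases, so for these 2 RNAs the divisor was nearly the same on both sides. For Rmrp, of 271 bases, the implied length was 0.613 to 1.35 bases (median 1.09) in the cortex-like and 5.20 to 14.5 bases (median 8.68) in the striatum-like libraries, so that most of its difference in FPKM lay in this divisor and not in the implied fragments. Compared by FPKM, a level per length, Rpph1 was the highest of the 3 RNAs in 30 of 30 cortex-like libraries. In the striatum-like libraries, Rpph1 was the highest in 19 and Rn7sk in 11, and the ranges of the 3 RNAs overlapped.

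The summed FPKM of a library varied more than these RNAs did. It ran from 531586 to 103713000 FPKM over the 60 libraries, the 10 highest entries held 56.1% to 92.3% of it, and entries under 150 bases held medians of 91.8% in the cortex-like and 76.8% in the striatum-like libraries. Rn7sk held a median of 0.396% (0.09995% to 4.34%) in the cortex-like and 0.5001% (0.119% to 2.18%) in the striatum-like libraries. The share of Rmrp was 0.393% (0.106% to 4.65%) and 0.391% (0.108% to 1.66%), and that of Rpph1 1.22% (0.306% to 13.0%) and 0.528% (0.143% to 2.00%). Combined, the 4 RNAs, with Rnu6, held 1.98% (0.528% to 22.0%) and 1.44% (0.370% to 5.85%). All of these ranges overlapped between the sets, unlike those of the FPKM. Outside entries under 150 bases the medians were 5.16% and 2.11% for Rn7sk, 5.40% and 1.82% for Rmrp, and 16.3% and 2.30% for Rpph1. Rn7s1 and Rn7s2, the RNA of the signal recognition particle, add nothing to the sums of the cortex-like libraries. All 30 listed them at 0, with a status of too many fragments to estimate. In the striatum-like libraries their medians were 153304 and 153266 FPKM, so the shares of the sets are taken from unlike sums.

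By rank the RNAs were among the highest entries in every library. Rpph1 had a median rank of 6.5 (3 to 20) in the cortex-like and 22.5 (6 to 38) in the striatum-like libraries. Rn7sk had 20 (5 to 41) and 22 (5 to 41), and Rmrp had 19 (4 to 42) and 27 (8 to 40). The ranks in the cortex-like libraries leave out Rn7s1 and Rn7s2, which had too many fragments to estimate there. By the median over all libraries, which lies between the sets for these RNAs, the 10 highest entries were Gm24407, Gm24265, Rny3, Rny1, Gm22486, Rpph1, Gm25492, Gm26397, Rn7sk and Rmrp. The order differs by set, since Rmrp and Rn7sk were above Gm26397, at a median of 118764 FPKM, in the cortex-like libraries and below it, at 49875, in the others. Gm24407 and Gm24265 are snRNA entries of 141 bases, Rny3 and Rny1 are Y RNAs, also made by polymerase III, and the 7 that are not members had 141 bases or fewer. Of these 10, Rpph1 and Rn7sk rested on the most fragments, with medians of 235944 and 107345, against 285 for Gm24407 and 19.0 for Rny3.

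**Figure D2:**
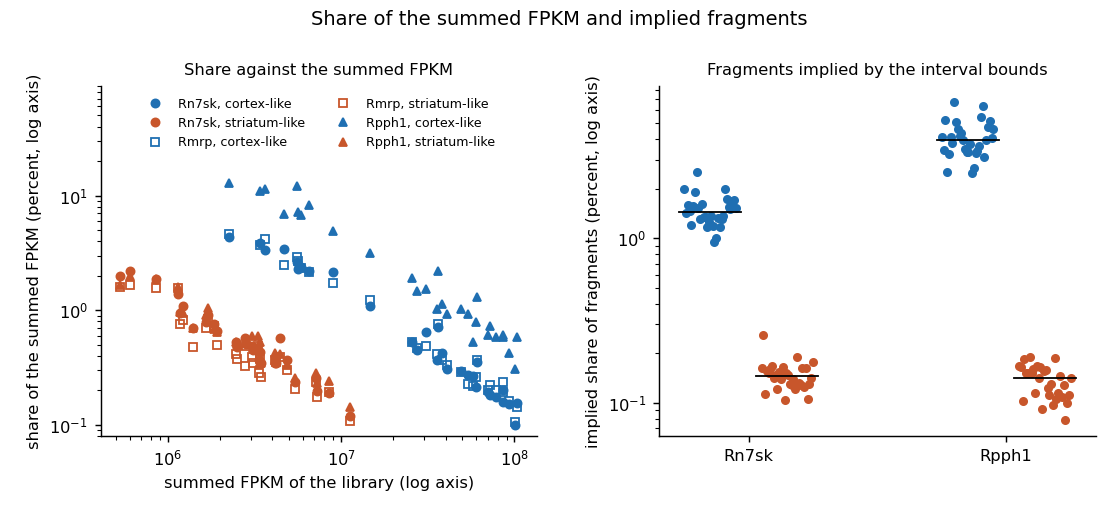
Left, the share of the summed FPKM held by Rn7sk, Rmrp and Rpph1 (y axis, percent, log scale) against the summed FPKM of the library (x axis, log scale), 1 point per RNA and library. Right, the share of fragments implied by the interval bounds (y axis, percent, log scale) for Rn7sk and Rpph1, 1 point per library and a black line for the median. The shares fall as the sum rises and overlap between the sets, from 0.09995% to 4.34% and 0.119% to 2.18% for Rn7sk, whereas the shares of fragments form separate groups, with medians of 3.96% and 0.142% for Rpph1.

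Other entries also differed between the sets. Of 16076 entries whose mean rescaled FPKM was 0.5 or more, 337 had a larger difference (cortex-like minus striatum-like median, log2) than Rn7sk at 2.98, 278 than Rmrp at 3.21 and 152 than Rpph1 at 4.51. The 165 entries with 1 transcript of 250 to under 350 bases had a median difference of 0.18 and 20.6% of them were above 2. Many of these 165 are processed pseudogenes. By annotation and at any length, 52.2% of 23 scaRNA, 37.5% of 277 snRNA and 26.8% of 41 misc_RNA entries were above 2. The shares were 20.2% of 252 snoRNA, 4.83% of 9981 protein-coding and 0% of 51 miRNA entries. The median difference was 0 for snRNA, misc_RNA and snoRNA entries. Rn7s6, an entry of 291 bases annotated as misc_RNA, and Scarna6, a small Cajal body RNA of 265 bases, had medians of 55911 and 1269 FPKM and of 7987 and 258 FPKM in the 2 sets, and were picked here after their values were seen. Ccdc107, a protein-coding gene on the other strand that overlaps 159 bases of Rmrp, had medians of 87.4 and 7.54 FPKM. Library preparation kept the strand, but whether the counting used it is not given in the sources used here. Ccnb1ip1, a gene on the same strand that overlaps 284 bases of Rpph1 and has a transcript with 70.2% of its 31-base words, was listed at 0 to 0.0447 FPKM in the cortex-like libraries and at 0 in the others. Parp2, whose start lies 73 bases from that of Rpph1, had medians of 3.75 and 2.40 FPKM, and C920006O11Rik, next to Rn7sk, 0.630 and 0.352 FPKM, with overlapping ranges for both.

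Rnu6 was listed above 0 in only 20 libraries, and no value rested on a whole fragment. It was above 0 in 19 of the 30 cortex-like libraries and in 1 striatum-like library, the one labelled cortex, +/+ of the KO line, male 3, at 1776 FPKM. The highest value was 18053 FPKM, in the library labelled striatum, Δ12/+, female 3, and the lower bound of the interval was 0 in all 60 libraries. The implied fragments were 0.00248 to 0.423 per library. The entry is 1 of 43 with the identical whole sequence, and 298 other genes shared at least 1 word of 31 bases with it, so its own level is uncertain. Summed over these 43 entries, the level was above 0 in 30 of 30 cortex-like libraries, at 3056, 90447 and 812762 FPKM (lowest, median and highest), and in 2 of 30 striatum-like libraries, at up to 44574 FPKM. Fold changes of Rnu6 depend on the pseudocount, and nothing is read from them.

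Rn7sk has partial copies at lower levels. Its 31-base words were shared with 25 other genes. Gm26315 on chromosome 2 and Gm24447 on chromosome 15, annotated as misc_RNA with 321 and 338 bases, held 68.1% and 70.1% of its words and were identical to it in 83.6% and 82.6% of aligned columns. Their medians were 8684 and 9391 FPKM in the cortex-like and 1054 and 1204 FPKM in the striatum-like libraries. Reads that match several of these genes could be split between them, so their values are not independent of those of Rn7sk.

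The FPKM of Rmrp and Rpph1 moved together within each set, and those of Rn7sk did so less surely. The relations of Rmrp rest on its FPKM alone, since its implied fragments hardly varied in the cortex-like libraries (2282 to 2319). Between Rmrp and Rpph1, the RNAs of the related ribozymes, Pearson's r of log2 rescaled FPKM was 0.88 (Spearman's rho 0.81) in the 30 cortex-like and 0.81 (rho 0.81) in the 30 striatum-like libraries. Between Rn7sk and Rmrp r was 0.80 (rho 0.67) and 0.66 (rho 0.62), and between Rn7sk and Rpph1 0.78 (rho 0.78) and 0.61 (rho 0.57). Over these 6 relations, two-sided permutation tests gave Benjamini-Hochberg adjusted p from 1e-05, the smallest they can give, to 0.0003 for r and from 2e-05 to 0.00112 for rho. Without the 2 libraries farthest from the median, r was 0.84 and 0.75 for Rmrp and Rpph1, 0.64 and 0.54 for Rn7sk and Rmrp, and 0.68 and 0.52 for Rn7sk and Rpph1. As deposited, without rescaling, r was 0.65 to 0.79 in the cortex-like libraries, where rho was as low as 0.40 for Rn7sk and Rmrp and r fell to 0.42 for Rn7sk and Rpph1 without 2 libraries, and r was 0.77 to 0.88 in the striatum-like libraries. By the labels, the 30 libraries of a set are pairs from 15 mice, so these p-values take as independent what shares an animal. The pairs are themselves uncertain. In Δ12/+, Ddx3y was at 21.5 to 27.1 FPKM in the 6 libraries labelled cortex and as low as 0 in those labelled striatum. Some labelled mice thus join libraries of unlike sex, and means per labelled mouse do not settle the point. Over means per labelled mouse (n = 15), chosen after the data were seen, r was 0.88 and 0.86 for Rmrp and Rpph1 (permutation tests, adjusted p 6e-05 and 0.0001) and 0.76 and 0.69 for Rn7sk and Rmrp (adjusted p 0.00166 and 0.00643). For Rn7sk and Rpph1 it was 0.75 (adjusted p 0.00243) and, in the striatum-like set, 0.47, which did not pass (permutation test, adjusted p 0.0722, rho 0.16). In that set rho of Rn7sk and Rmrp was 0.46 and did not pass either (permutation p = 0.0836). The libraries of a set share a scale factor per library and mix genotypes, and the part of these in the relations was not tested.

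The entries closest in level were of several kinds, the other members among them. Over the 60 libraries, after the median of each set was subtracted, the entries most like Rn7sk were its copies Gm26315 (r 0.85) and Gm24447 (0.84), then Rmrp (0.74), Rpph1 (0.73) and the protein-coding Ubxn6 (0.70). Those most like Rmrp were Rpph1 (0.84), Rn7sk (0.74), Gm9843 (0.74), the scaRNA Gm25395 (0.73) and the snoRNA Gm26448 (0.72). Those most like Rpph1 were Rmrp (0.84), Scarna2 (0.81), Rpl13a, which codes for a ribosomal protein (0.81), Gm25395 (0.77) and the protein-coding Fbxl17 (0.76), with Rn7sk in place 11. These values are a description over libraries that share their scaling.

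The ratios of the RNAs within a library, which need no scaling between libraries, differed by set. The ratio of Rpph1 to Rn7sk had a median of 3.10 (1.97 to 4.58) in the cortex-like and 1.06 (0.726 to 1.33) in the striatum-like libraries, and that of Rpph1 to Rmrp of 2.95 (2.40 to 4.15) and 1.24 (0.941 to 1.57). Neither overlapped. The ratio of Rmrp to Rn7sk, at 1.054 (0.728 to 1.25) and 0.825 (0.569 to 1.13), did. Ratios with Rmrp rest on its FPKM alone, and the length that its FPKM imply had medians of 1.09 bases in the cortex-like and 8.68 in the striatum-like libraries.

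**Figure D3:**
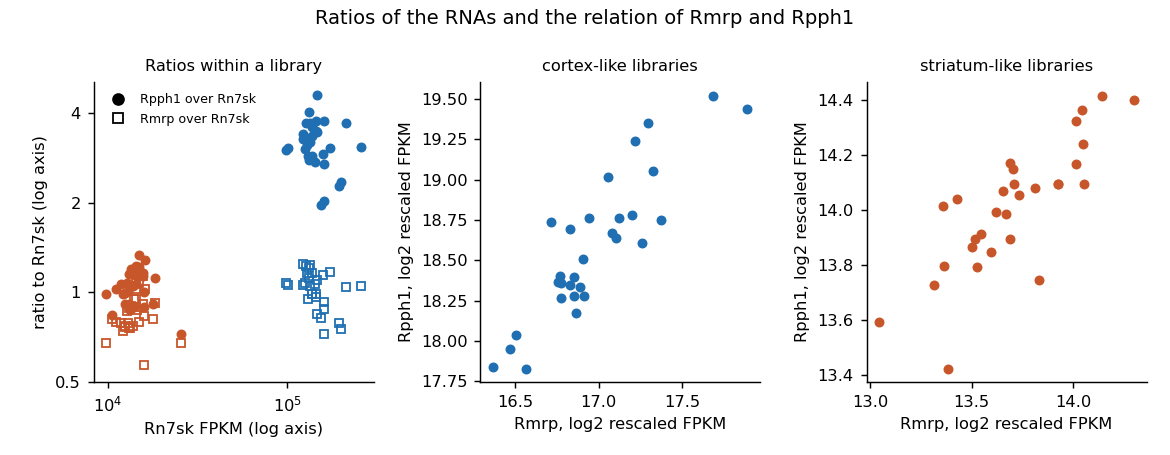
Left, the ratio of Rpph1 (filled circles) and Rmrp (open squares) to Rn7sk in FPKM (y axis, log scale) against Rn7sk (x axis, log scale), 1 point per library, blue for cortex-like and orange for striatum-like. Middle and right, Rpph1 against Rmrp (log2 rescaled FPKM) in the cortex-like and the striatum-like libraries, where r was 0.88 and 0.81. Ratios of Rpph1 to Rn7sk are 1.97 or more in one set and 1.33 or less in the other.

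The comparisons between labelled groups used limma with the labelled sex as a covariate on log2(rescaled FPKM + 0.5), a scale that understates the change of low genes, and an entry was called at a Benjamini-Hochberg adjusted p under 0.05 over all entries tested. Nothing says that libraries with the same label were prepared apart beyond coming from different mice, so p-values measure the spread between these libraries. Both Δ12 comparisons share the +/+ libraries of the line, and the comparison of lines shares them too, as it shares the +/+ libraries of the KO line with KO/+.

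Between libraries labelled Δ12/+ and +/+, none of the 4 RNAs was called. In the libraries labelled striatum, Rn7sk was at 84542, 115036 and 203269 rescaled FPKM (lowest, median and highest of 6) in Δ12/+ and 102035, 128683 and 145192 in +/+. Its log2 fold change was -0.03 ± 0.16 (SE, n = 6 and 6), that of Rmrp was -0.05 ± 0.17 and that of Rpph1 was 0.15 ± 0.22, with limma's adjusted p of 1.00 for each. The 95% intervals reached from -0.38 to 0.32, -0.42 to 0.33 and -0.33 to 0.62. Of 15077 entries, 0.00663% were called, which is 1 entry, and 486 had an unadjusted p under 0.05.

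Under the label cortex, the means of the 3 RNAs were lower in Δ12/+ and none passed the test. Rn7sk was at 87934, 105214 and 121607 rescaled FPKM in Δ12/+ and 115989, 155508 and 231445 in +/+, so that the groups overlapped. Its log2 fold change was -0.61 ± 0.17 (SE, n = 6 and 6, limma's adjusted p 0.312), that of Rmrp -0.37 ± 0.18 (adjusted p 0.615) and that of Rpph1 -0.51 ± 0.21 (adjusted p 0.568). Rmrp and Rpph1 were highest in the same +/+ library, female 2, at 243352 and 712016 rescaled FPKM, and without it the change of Rmrp was -0.20. Of 15095 entries, 0.0662% were called, which is 10 entries, and 1263 had an unadjusted p under 0.05. Among the 10 was Rn7s6, lower by 1.56 ± 0.16 on the log2 scale (log2 fold change -1.56, adjusted p 0.00208), the only called entry of the lists of polymerase III and its RNAs.

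Between Δ12/Δ12 and +/+, the outcome followed the labelled sex. In the libraries labelled striatum, the Δ12/Δ12 males had 146165, 160075 and 145083 FPKM of Rn7sk as deposited and the females 14882, 14373 and 14432, while the 6 +/+ libraries lay between 129649 and 173677. Rmrp was at 123421, 140924 and 142820 FPKM in the males and 16038, 14752 and 13702 in the females, with +/+ at 126157 to 203397. Rpph1 was at 502735, 430125 and 504370 FPKM in the males and 19848, 16380 and 15366 in the females, with +/+ at 302931 to 530782. The 3 males thus sat at the level of +/+ or close to it, and the 3 females, which are the striatum-like libraries of the group, sat far below.

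In the test over all 12 libraries, Rn7sk and Rmrp were called lower in striatum-labelled Δ12/Δ12, with log2 fold changes of -1.48 ± 0.48 (SE, limma's adjusted p 0.0444) and -1.70 ± 0.49 (adjusted p 0.0370), and Rpph1 was not, at -2.14 ± 0.76 (adjusted p 0.0540). Of 15467 entries, 28.3% were called, 2278 higher and 2103 lower, whereas without rescaling 1291 were higher and 3045 lower. In the males alone, the log2 fold changes were 0.07, -0.13 and 0.33 for Rn7sk, Rmrp and Rpph1, and none was called. With the set defined by Slc17a7 added to the fit, 21 entries were called. The changes were then the same as in the males by construction, since the set marks only the labelled females of Δ12/Δ12. The count of 4381 called entries fell to between 5 and 33 when any 1 of the 6 labelled females was left out, and was 3436 to 6208 without any 1 of the males. Both calls were lost when any of the labelled females was left out, and that of Rn7sk also without the +/+ male 3 (adjusted p up to 0.106 for Rn7sk and 0.0922 for Rmrp). Rnu6 was listed at 0 in all 6 Δ12/Δ12 libraries and at 315 to 6030 rescaled FPKM in +/+, on values below 1 fragment. It was among the called entries, but it passed the filter through the +/+ libraries alone and its change is set by the zeros and the pseudocount, so nothing is read from the call.

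The pattern was alike under the label cortex, where no RNA was called. Rn7sk was at 159583, 138256 and 136919 FPKM as deposited in the Δ12/Δ12 males and 15755, 25523 and 11157 in the females, and Rpph1 at 322351, 397586 and 492125 against 18316, 18519 and 11417. Rmrp was at 116171, 136253 and 135272 FPKM against 17825, 17297 and 8894. Over all 12 libraries the log2 fold changes were -1.78 ± 0.47 for Rn7sk, -1.85 ± 0.48 for Rmrp and -2.63 ± 0.69 for Rpph1 (SE, limma's adjusted p 0.0697 for each). All 3 were called without the +/+ male 2 (adjusted p 0.0325, log2 fold changes of -2.02, -2.05 and -2.98). In this comparison 0.924% of 15696 entries were called, which is 145. Without the +/+ male 2 it was 3844, without 1 of the other libraries 12 (Δ12/Δ12 female 1) to 165.

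Between libraries labelled KO/+ and +/+, none of the RNAs was called. In striatum-labelled mice, all striatum-like, Rn7sk was at 15225, 16363 and 19124 rescaled FPKM (lowest, median and highest) in KO/+ and 13378, 13986 and 15097 in +/+. Its log2 fold change was 0.23 ± 0.07 (SE, n = 6 and 6, 95% interval 0.08 to 0.37), and it was not called (limma's adjusted p 0.0685). Rmrp was at 0.21 ± 0.10 (limma's adjusted p 0.232) and Rpph1 at -0.03 ± 0.09 (adjusted p 0.887). Of 15808 entries, 6.91% were called, 555 higher and 538 lower, whereas without rescaling 23 were higher and 283 lower. An unadjusted p under 0.05 (limma) was found for 3449 entries. In the same comparison, 6 of 8 markers of striatal projection neurons were called higher and 4 of 5 of oligodendrocytes lower, and their part in the value of Rn7sk was not tested. Rnu6 was listed at 0 in all 12 libraries.

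For the cortex label of this line, also striatum-like, the log2 fold changes in KO/+ were 0.16 ± 0.09 for Rn7sk (SE, limma's adjusted p 0.463), -0.09 ± 0.14 for Rmrp (adjusted p 0.820) and -0.11 ± 0.13 for Rpph1 (adjusted p 0.758). Rn7sk was at 13120, 16659 and 19619 rescaled FPKM in KO/+ and 12493, 14944 and 16401 in +/+, with overlap. Of 15820 entries, 0.0885% were called, which is 14 entries, and 2202 had an unadjusted p under 0.05. None of 8 markers of striatal projection neurons and of 5 of oligodendrocytes was called here.

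**Figure D4:**
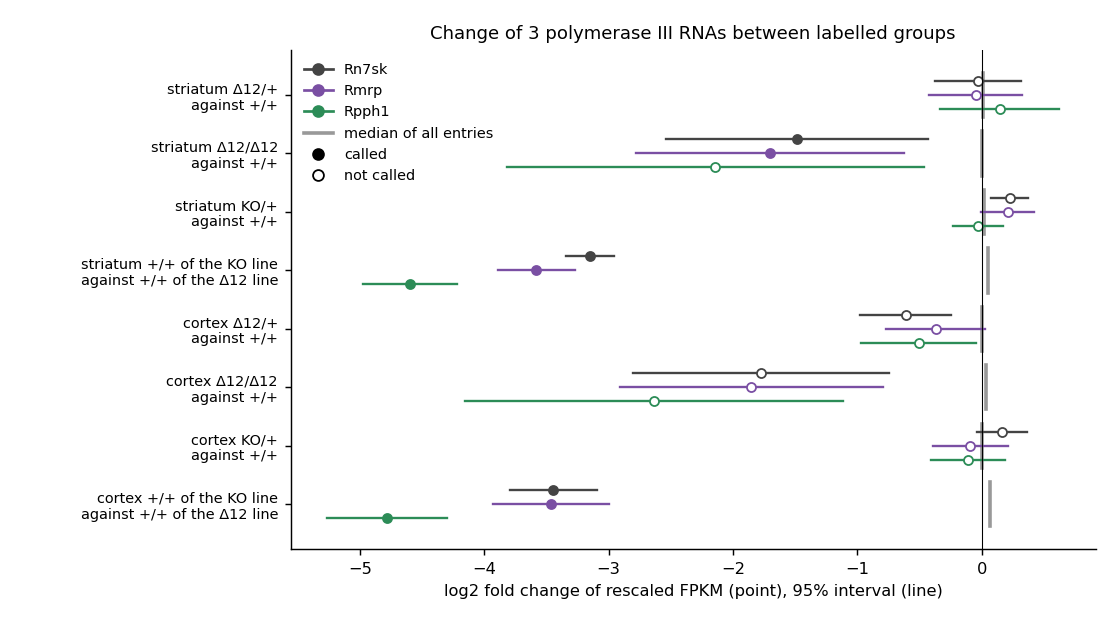
Log2 fold change of rescaled FPKM (x axis) of Rn7sk, Rmrp and Rpph1 in the 8 comparisons between labelled groups (y axis), as points with 95% intervals, filled where called, with a gray bar for the median of all entries tested. Values of the Δ12/+ and KO/+ comparisons lie between -0.61 and 0.23, those of the Δ12/Δ12 comparisons between -2.63 and -1.48 with wide intervals, and those between the lines between -4.78 and -3.15.

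Relative to Rn7sk, Rpph1 was lower in KO/+ under both tissue labels. All of these libraries were striatum-like and, by the labels, came from the same mice, so the tests under the tissue labels are not independent. How often the ratios of other entries differ was not tested. In the libraries labelled striatum, the geometric mean of the ratio of Rpph1 to Rn7sk was 0.935 in KO/+ and 1.12 in +/+ (two-sided exact permutation test, p = 0.00649, adjusted over 24 comparisons of ratios 0.0260). In those labelled cortex it was 0.963 and 1.16 (exact p = 0.0130, adjusted 0.0390). The ratio of Rpph1 to Rmrp was 1.15 in KO/+ and 1.35 in +/+ in the libraries labelled striatum (exact p = 0.00433, adjusted 0.0208) and 1.26 and 1.28 in those labelled cortex (exact p = 0.833). The groups overlapped in each case, and the ratios to Rmrp rest on its FPKM alone. No ratio passed this test in a comparison of Δ12/+ or Δ12/Δ12, where the lowest adjusted p was 0.110.

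Between the +/+ mice of both lines, the 3 RNAs were called lower in the KO line in both labelled tissues, and the groups did not overlap. Under the label striatum, Rn7sk was at 13378, 13986 and 15097 rescaled FPKM against 102035, 128683 and 145192, and Rpph1 at 13538, 16234 and 18438 against 232915, 420672 and 543805. The log2 fold changes were -3.15 ± 0.09 for Rn7sk, -3.58 ± 0.14 for Rmrp and -4.60 ± 0.17 for Rpph1 (SE, n = 6 and 6, limma's adjusted p 2.22e-10, 1.37e-09 and 9.85e-10). Under the label cortex they were -3.45 ± 0.16, -3.47 ± 0.21 and -4.78 ± 0.22 (adjusted p 2.10e-08, 1.05e-07 and 2.03e-08). Of all entries, 79.4% of 15712 were called in striatum and 68% of 15800 in cortex, and 177 and 261 entries had a larger change than Rpph1. Rnu6 was above 0 in 1 of the 12 KO-line libraries and 11 of the 12 Δ12-line libraries, again on values below 1 fragment, and nothing is read from its test. This comparison is one of cortex-like with striatum-like libraries, so line, tissue and place in the list cannot be told apart.

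Both ratios with Rpph1 also differed between the lines. The ratio to Rn7sk was 1.12 in the KO line and 3.05 in the Δ12 line in the libraries labelled striatum, and 1.16 and 2.93 in those labelled cortex. The ratio to Rmrp, which rests on the FPKM of Rmrp alone, was 1.35 and 2.74, and 1.28 and 3.20. All 4 had an exact permutation p of 0.00216, the smallest that 6 against 6 libraries can give, and 0.0130 when adjusted. Rmrp relative to Rn7sk was at 0.825 and 1.11 (exact p = 0.00866, adjusted 0.0297) in striatum and at 0.906 and 0.918 (exact p = 0.870) in cortex.

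Scaling moved all of these values. With the summed FPKM outside the 10 highest entries as the scale, the median of all entries moved from 0.05 to 2.15 (log2) between the lines in the libraries labelled striatum, and Rn7sk was at -0.40 and Rmrp at -0.84, not called. Relative to the median of all entries, Rn7sk was at -3.20, -3.24 and -2.56 under the median ratio, as deposited and under this sum, Rmrp at -3.63, -3.68 and -2.99, and Rpph1 at -4.65, -4.69 and -4.01.

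The genes that make, bind and regulate these RNAs were called in both directions between the lines. The subunits of polymerase III, of which 18 were tested, were called higher in 6 and lower in 9 in the libraries labelled striatum, with a median log2 fold change of -0.39 beside 0.05 for all entries, and 5 and 8 were called in cortex. These 15 and 13 of 18 stand beside 79.4% and 68% of all entries called, which they are near. Polr1c, Polr1d and Polr2f, which are shared with polymerase I or polymerase II as well, fell by 2.40, 2.47 and 2.34 on the log2 scale (each called) in striatum. Polr3a, which codes for the largest subunit and was picked after its value was seen, rose by 0.82 ± 0.09. Of 20 genes of initiation and its control, 10 were called higher and 3 lower, with Gtf3a, the factor of 5S RNA genes, at -2.40 ± 0.11, Maf1, the repressor of polymerase III, at -1.79 ± 0.17, and Ssb, which codes for the La protein that binds the ends of new transcripts, at 1.21 ± 0.12. In cortex the counts were 8 and 2. None of these lists had a called member in the comparisons of Δ12/+ or KO/+, apart from Rn7s6 in cortex-labelled Δ12/+.

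Partners of 7SK RNA and proteins of the ribozymes were called in both directions as well, beside 79.4% of all entries called in striatum and 68% in cortex. Of 7 genes of the 7SK complex and P-TEFb, 5 were called higher and 1 lower in the KO line in striatum (2 and 1 in cortex), with Hexim1 at 0.82 ± 0.07, Larp7 at 1.16 ± 0.16, Mepce, the enzyme that caps 7SK, at 0.46 ± 0.11, and Cdk9, the kinase of P-TEFb, at -0.54 ± 0.09. Of 11 proteins of RNase P and RNase MRP, 1 was called higher and 6 lower in both tissues, with Pop5 at -2.57 ± 0.14, Rpp38 at -2.26 ± 0.17, Rpp21 at -1.45 ± 0.12 and Pop4 at -1.60 ± 0.16 in striatum. Of 14 genes of the U6 particle, 4 were called higher and 7 lower in striatum (4 and 6 in cortex), with Lsm4, Lsm3, Lsm7 and Prpf31 at -2.16, -2.59, -2.72 and -1.96. In striatum-labelled Δ12/Δ12, where 28.3% of all entries were called, 5 of 18 polymerase III subunits, 1 of 20 initiation genes, 3 of 11 proteins of RNase P and RNase MRP and 4 of 14 genes of the U6 particle were called lower, and 3 of the initiation genes and Larp7, 1 of 7 genes of the 7SK complex, were called higher. These shares are near the background or below it.

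Other RNAs of polymerase III were measured less surely. Of 10 looked for, 6 were listed. Rny3 was at 49936, 2632420 and 7962870 FPKM (lowest, median and highest) in the cortex-like and 7117, 367032 and 1271380 in the striatum-like libraries, and its ranges overlapped. Rny1 was at 44607, 1827820 and 4485580 and at 0, 73687 and 497085. Between the lines (log2, striatum and cortex), Rn7s6 was called at -5.15 ± 0.17 and -5.86 ± 0.18 and Rny1 at -2.96 ± 0.67 in cortex alone, at -6.30 ± 2.92 in striatum, and Rny3 was not called, at -1.41 ± 0.89 and -1.43 ± 0.60. Vaultrc5, the RNA of the vault particle, was above 0 in 4 and 1 libraries of the 2 sets. Rn7s1 and Rn7s2, the RNA of the signal recognition particle, were listed at 0 with the status HIDATA, which means too many fragments to estimate, in all 30 cortex-like libraries, and at medians of 153304 and 153266 FPKM in the striatum-like libraries, so no ratio can be given. A list of RNAs made by polymerase II held small nuclear RNAs, the small nucleolar RNA U3 and Terc, the telomerase RNA. Of its 19 entries tested, 11 and 16 were called lower and none higher (limma, striatum and cortex). Of all entries, 79.4% and 68% were called. Several U3 entries had the same values, so these counts repeat the same RNA. Rnu2-10 was at -4.69 ± 0.27 and -5.33 ± 0.23 and Rnu1a1 at -4.41 ± 0.27 and -5.15 ± 0.21, among entries that have near-identical copies.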

How the data were processed

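The authors deposited, for each of 60 libraries, a gene-level table of FPKM with interval bounds and a status, in the layout of Cufflinks, and no counts. Per the labels' processing notes the tools were bcl2fastq 2.20, Trimmomatic 0.30, TopHat2 2.0.14, SAMtools 1.3 and HTSeq 0.6.1p1, with GRCm38.p4. The RNA was depleted of rRNA and made into directional libraries. Short RNAs can be lost in RNA purification and size selection, and the part of this in the levels was not tested.

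Entries with the status OK in all libraries (47574 of 47597) were used. FPKM were divided by the median ratio of 13235 entries, above 0 in all libraries, to their geometric mean (rescaled FPKM). Differences were tested with limma 3.58.1 in R 4.3.3 on log2(rescaled FPKM + 0.5), for entries whose mean in the fit of 12 libraries was 0.5 or more, with labelled sex as a covariate. Ratios and correlations were tested by permutation in scipy 1.17.1, over the FPKM of a library and over log2 rescaled FPKM. Fragments and depth were computed from the bounds, taken as 2 SD of a count on either side, with depth from single-transcript entries of at least 2000 bases and 20 fragments. Reference sequences were those of GENCODE M21 transcripts and RefSeq promoters.

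The members and the gene lists were chosen with earlier results of these data known. Named genes were the members, up to 4 called genes per list and comparison by adjusted p, the 5 entries most like each member and the 10 highest entries, and the listed RNAs of polymerase III were all named, which was decided after their values were seen. The sequence of Rnu6 and the values of 1 listed gene are not reported here. The 4 Ensembl entries match M21 coordinates. Groups follow the labels, and no library was moved. For the library labelled striatum, KO/+, female 3, the title gives the other line, and the genotype label was followed. No 2 libraries were identical. The fits were tested on simulated data. The alternatives were other scalings, pseudocount, filter, status, covariates, a replicate block, all libraries of a labelled tissue in 1 fit, each library left out, and, chosen after seeing the data, each labelled sex alone and means per labelled mouse.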

Additional observations from a re-analysis of the deposited data

Results flagged for a closer look

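In the library labelled cortex, +/+ of the Δ12 line, female 2, Rmrp was at 243352 rescaled FPKM (270825 as deposited), apart from the other 5 of its group at 116269 to 152240. The gap to the nearest library was 0.717 of the range, above Dixon's 95% critical value for 6 libraries. It was 1 of 30 groups checked for Rn7sk, Rmrp and Rpph1, and chance alone gives about 1 in 20.

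The change in Δ12/Δ12 against +/+ differed between labelled females and males, tested with an interaction term in limma that was chosen after the data were seen. In the libraries labelled striatum, the female change minus the male change (log2) was -3.11 for Rn7sk (adjusted p 1.79e-06), -3.15 for Rmrp (6.60e-06) and -4.95 for Rpph1 (2.58e-06), where 55.8% of all entries were called. In those labelled cortex it was -2.80 (adjusted p 0.000652), -2.91 (0.000424) and -4.37 (0.000107), where 43.9% were called. The 6 labelled females are the striatum-like libraries of these groups, and labelled sex and set cannot be told apart. No such difference was called for the 3 RNAs in the comparisons of Δ12/+ and KO/+, where at most 4 entries were called.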

How the results depend on the processing

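Of 246 log2 fold changes of Rn7sk, Rmrp and Rpph1 under another setting, 207 kept direction and side of the threshold, 12 lost the call, 9 gained it and 18 changed sign, and the cause was not tested. Scaled by the summed FPKM without the 10 highest entries, signs changed for Rn7sk and Rmrp in striatum Δ12/+ (0.45, 0.43), Rpph1 in striatum KO/+ (0.51), Rn7sk, Rmrp and Rpph1 in cortex Δ12/+ (0.22, 0.46, 0.32), Rn7sk and Rmrp in cortex Δ12/Δ12 (0.43, 0.35) and Rmrp and Rpph1 in cortex KO/+ (0.42, 0.39). Calls were lost for Rn7sk and Rmrp in striatum Δ12/Δ12 (-0.43, -0.65) and between the lines in striatum (-0.40, -0.84), and Rnu6, whose values depend on the pseudocount, gained one in cortex Δ12/Δ12 (-5.59). In labelled females alone, Rn7sk and Rmrp in striatum Δ12/+ were at 0.21 and 0.0359 and Rnu6 in cortex Δ12/+ at 0.70, Rpph1 was called in striatum Δ12/Δ12 (-4.62), the 3 RNAs in cortex Δ12/Δ12 (-3.18, -3.31, -4.82), and Rnu6 between the lines in cortex was not (-7.17). In labelled males alone, Rpph1 in striatum Δ12/+ was at -0.0234, and in striatum Δ12/Δ12 Rn7sk was at 0.0745, Rmrp at -0.13, Rpph1 at 0.33 and Rnu6 at -11.60, none called. With the expression-defined set in the fit, Rn7sk, Rmrp and Rpph1 were at 0.0745, -0.13 and 0.33, which by construction are the values of the labelled males. Without the filter, without sex and with the replicate block, Rn7sk (-1.48) and Rmrp (-1.70) in striatum Δ12/Δ12 lost the call (adjusted p with the replicate block 0.161 and 0.158). As deposited, Rpph1 there was called (-2.30) and Rn7sk in cortex KO/+ was at -0.00687. In 1 fit of the 30 libraries that share a tissue label, Rpph1 in striatum Δ12/Δ12 (-2.14) and Rn7sk, Rmrp, Rpph1 and Rnu6 in cortex Δ12/Δ12 (-1.78, -1.85, -2.63, -7.07) were called.

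With 1 library left out, 258 of 288 values kept both. In cortex Δ12/+, Rmrp ran from -0.4415 to -0.2047 (the latter without the +/+ female 2). In striatum Δ12/+, Rn7sk ran from -0.149 to 0.0574 and Rmrp from -0.142 to 0.0622, and in striatum KO/+ Rpph1 ran from -0.0769 to 0.0124. In striatum Δ12/Δ12, Rn7sk ran from -1.71 to -1.30 (called in 5 of 12), Rmrp from -1.96 to -1.51 (6 of 12) and Rpph1 from -2.52 to -1.81 (5 of 12). In cortex Δ12/Δ12, they ran from -2.02 to -1.52, -2.05 to -1.55 and -2.98 to -2.28 (1 of 12 each).

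Correlations of same-numbered libraries were -0.222 to 0.157, so the numbers do not pair them. The replicate block changed no other call of these RNAs. It called 5 entries in striatum Δ12/Δ12 (4381 without), 302 in striatum KO/+ (1093), 0 in striatum Δ12/+ (1), 3 in cortex Δ12/+ (10), 9 in cortex Δ12/Δ12 (145) and 0 in cortex KO/+ (14). With 1 library left out, counts ran from 560 to 1243 in striatum KO/+, 1 to 2 in striatum Δ12/+, 5 to 41 in cortex Δ12/+ and 1 to 19 in cortex KO/+. Over the other settings, counts ran from 2 to 11087 in striatum Δ12/Δ12, 0 to 1102 in striatum KO/+, 0 to 5 in striatum Δ12/+, 0 to 53 in cortex Δ12/+, 5 to 13937 in cortex Δ12/Δ12 and 0 to 110 in cortex KO/+. Between the lines they were 10901 to 14667 and 8622 to 13791, with 5000 higher and 7053 lower as deposited in striatum (6588 and 5881 rescaled).

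Without the 10 highest entries in the sum, the median shares in the cortex-like and striatum-like libraries were 2.48% and 2.02% for Rn7sk, 2.70% and 1.67% for Rmrp, and 7.21% and 2.24% for Rpph1. Over means per labelled mouse, r of Rn7sk and Rpph1 in the striatum-like libraries was 0.47, no longer past the threshold. The spread of Rn7sk in the striatum-like libraries was 13.1% without its extremes.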
